A study of Homo sapiens with 6 samples.

Results

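The mitochondrial ribosomal protein genes were taken as the protein-coding genes of the deposited table whose symbol starts with MRPL or MRPS followed by a digit, which gave 78 of 58735 genes. TPC-1 cells, a line from a human papillary carcinoma of the thyroid, were studied, and 3 libraries of the wild strain were compared with 3 libraries of *RRM2*-OE-TPC-1, the same line infected with a lentivirus that carries *RRM2* under a CMV promoter and selected with puromycin. The wild strain was not infected, so the insertion of *RRM2*, the virus and the selection cannot be told apart, and libraries of an empty vector were not analysed here. The values are FPKM, reads scaled to the length of the gene and to a divisor of each library. The divisors were proportional to median-of-ratios factors, set by the median gene (ratios of 0.9988 to 1.001), and not to read totals. They were 1.031, 1.049 and 1.053 times the reads on genes in TPC-1, and 1.01, 1.003 and 0.997 times in *RRM2*-OE-TPC-1. The gene length of the members counts every annotated exon, from 959 to 16393 bases, and some exons are shared. FPKM of different genes is therefore only a rough guide to their relative levels. The genotype field of replicates 2 and 3 of the overexpression group names another gene, while their titles name *RRM2*, and *RRM2* had 50.4, 47.5 and 47.2 FPKM in replicates 1 to 3 against 9.17, 9.05 and 8.52 in TPC-1.

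Mitochondrial ribosomes translate the few proteins that mitochondrial DNA encodes, all of them subunits of the respiratory chain and ATP synthase. Their RNAs are transcribed in the organelle, whereas every one of their proteins is encoded in the nucleus, made in the cytosol and imported. Some of these proteins have a counterpart in the bacterial ribosome, and others were added during the evolution of mitochondria. The symbols do not always follow the structure: the products of *MRPS18A* and *MRPS30* sit in the large subunit, and that of *MRPS36* belongs to the 2-oxoglutarate dehydrogenase complex. By structure, 51 members belong to the large subunit and 26 to the small subunit. The libraries held 14317091 to 17084067 reads on genes. Of the thyroid markers, *PAX8* was present, with 67.3 to 70.8 FPKM in the wild strain and 56.3 to 59.8 after overexpression, while *NKX2-1* was at 0 in all libraries. The summed FPKM of 5 epithelial markers was 42.8 to 47.1 in TPC-1 and 88.3 to 90.7 in *RRM2*-OE-TPC-1, that of 5 fibroblast markers 2.78 to 3.16 and 2.78 to 2.94, that of 4 leukocyte markers 0.349 to 0.41 and 0.107 to 0.183, and that of 3 endothelial markers 0.873 to 1.05 and 0.0667 to 0.115. The epithelial sum was almost all *KRT18*, with means of 41.2 and 85.2 FPKM, while *KRT7* stood at 1.18 and 1.01, and of the endothelial markers *PECAM1* was lower at -2.71 (adjusted p = 2.35e-05 in limma). The genes *CD3E*, *COL1A2* and *DCN* were at 0 in all libraries. The part of these shifts in the results was not tested. In cultures measured in bulk, fewer cells that express a gene and less of its RNA per cell cannot be told apart.

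In *RRM2*-OE-TPC-1 most mitochondrial ribosomal protein genes were more abundant, most of them by less than a log2 fold change of 1. Of 77 members tested, 60 (77.9%) were higher at an adjusted p of 0.05 or less in limma, against 34.9% of the 13621 genes tested. Only 2 members (2.6%) were lower, *MRPL10* and *MRPL45*, against 32.7% of all genes, and 15 passed in neither direction. The median log2 fold change of the members was 0.36, a fold of 1.28, with quartiles of 0.19 and 0.56, while the median of all genes was 0.011. Among protein-coding genes with a mean of at least 5 FPKM the median was 0.11 and 47.3% were higher. A single member, *MRPL27*, also passed a log2 fold change of 1, against 4.48% of all genes in that direction. In 60 members every *RRM2*-OE-TPC-1 library lay above every TPC-1 library, and in 2 members below, where the shares over all genes were 37.3% and 35%. Of the 60 higher members, 54 were still called without each library in turn, and *MRPL40*, *MRPL57*, *MRPS21*, *MRPS22*, *MRPS27* and *MRPS36*, with adjusted p from 0.0237 to 0.0374, were lost without at least 1. The members share the same 6 libraries and are not independent of each other, and p measures the spread between libraries that the study's methods call biological triplicates, without saying how the cultures were separated.

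**Figure D1:**
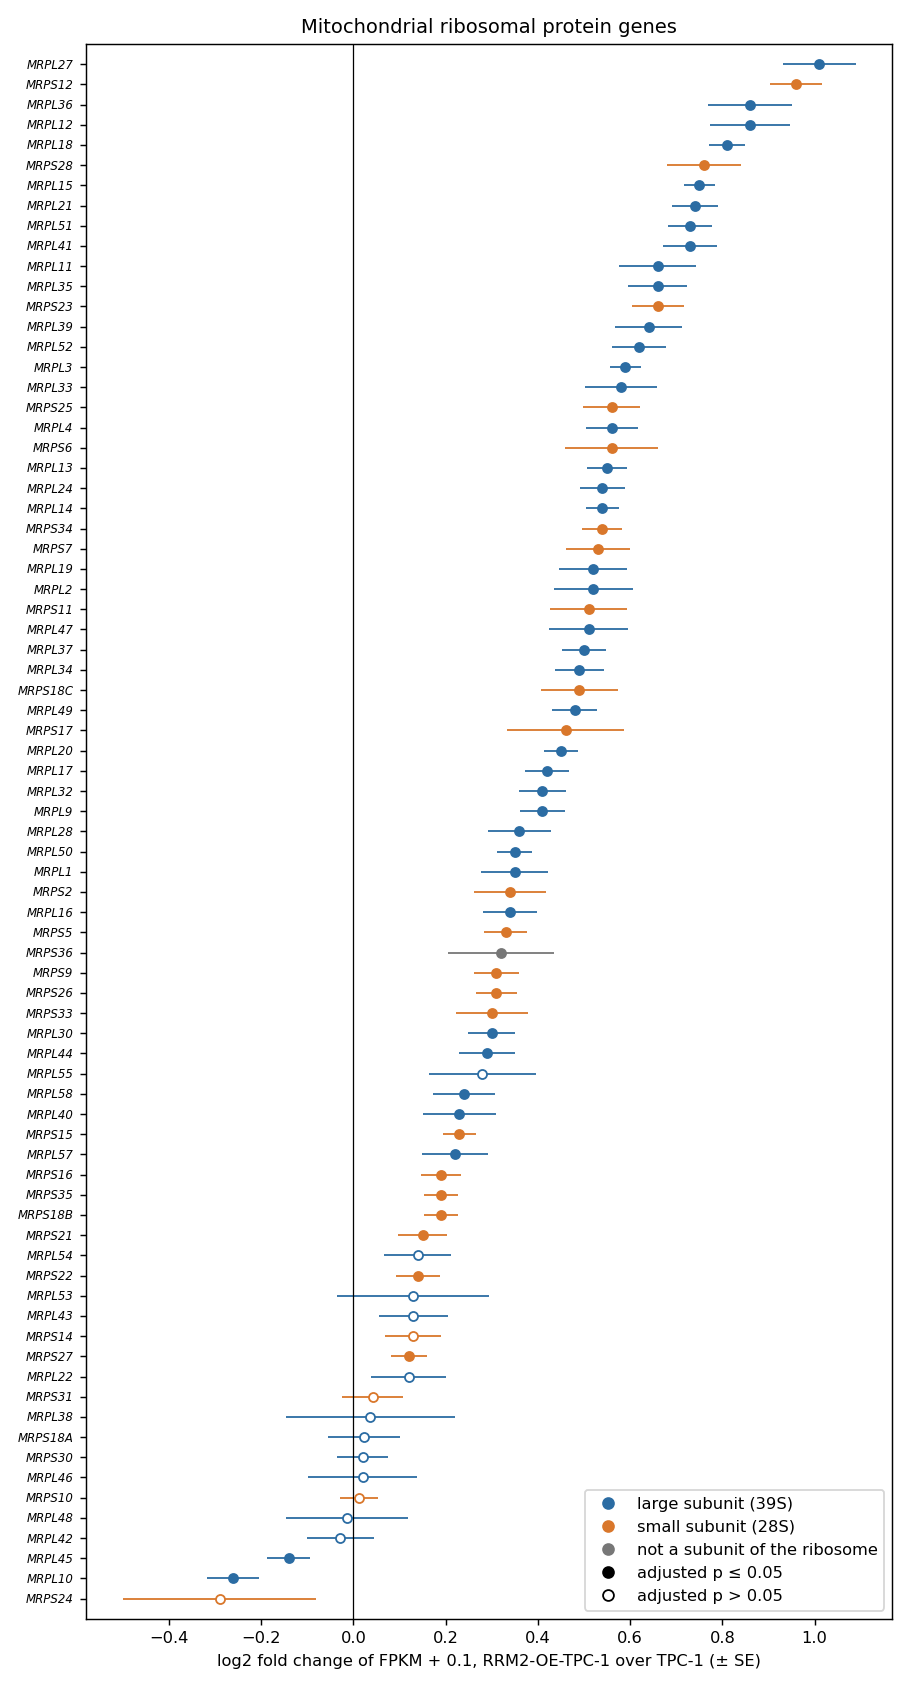
Log2 fold change of FPKM + 0.1 in *RRM2*-OE-TPC-1 over TPC-1 (x axis, bars are standard errors) of the 77 members tested, ordered by size and coloured by subunit, filled where the adjusted p was 0.05 or less. The estimates run from -0.29 for *MRPS24* to 1.01 for *MRPL27*, and 72 of 77 lie above 0, against 6921 of all 13621 genes tested.

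The shift showed in each library. Relative to the TPC-1 mean of each gene, the median member stood at log2 values of 0.39, 0.39 and 0.41 in the 3 *RRM2*-OE-TPC-1 libraries and at 0.036, -0.044 and 0.0062 in the 3 TPC-1 libraries. Between 70 and 72 members were above their TPC-1 mean in each *RRM2*-OE-TPC-1 library. The same count by library was not made for all genes, of which 6921 of 13621 tested had a log2 fold change above 0. Summed over all 78 members, the FPKM was 1169, 1108 and 1150 in TPC-1 and 1557, 1555 and 1545 in *RRM2*-OE-TPC-1, a ratio of the means of 1.36. The groups were far apart on this measure, with standard deviations of 31.2 and 6.15. The members lie on 21 chromosomes with at most 8 on any of them, and the medians of all genes on these chromosomes were between -0.046 and 0.19. Across the 77 members, Spearman's rho of the log2 fold change was 0.25 with the mean FPKM, -0.18 with gene length and 0.073 with the chromosome median, values that describe genes of the same libraries and carry no test. Of 67 members with a mean of at least 5 FPKM 57 were called higher, against 47.3% of protein-coding genes at that level. Of 10 members below it 3 were called higher, which is near the 34.9% of all genes tested.

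Both subunits had higher summed levels in *RRM2*-OE-TPC-1. The summed FPKM of the large subunit was 780, 736 and 767 in TPC-1 and 1076, 1078 and 1075 in *RRM2*-OE-TPC-1, a ratio of 1.41. The small subunit went from 382, 365 and 376 to 474, 468 and 462, a ratio of 1.25. In neither sum did the groups overlap, and the FPKM of the large per small subunit was 2.04, 2.02 and 2.04 in TPC-1 and 2.27, 2.30 and 2.33 in *RRM2*-OE-TPC-1. By gene, 37 of 50 tested members of the large subunit (74.0%) were higher and 2 lower, with a median log2 fold change of 0.44. In the small subunit 22 of 26 (84.6%) were higher and 0 lower, with a median of 0.31. Of all genes tested 34.9% were higher and 32.7% lower. The sums are led by the members with the highest FPKM. Whether the subunits differ beyond the spread of their genes was not tested.

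**Figure D2:**
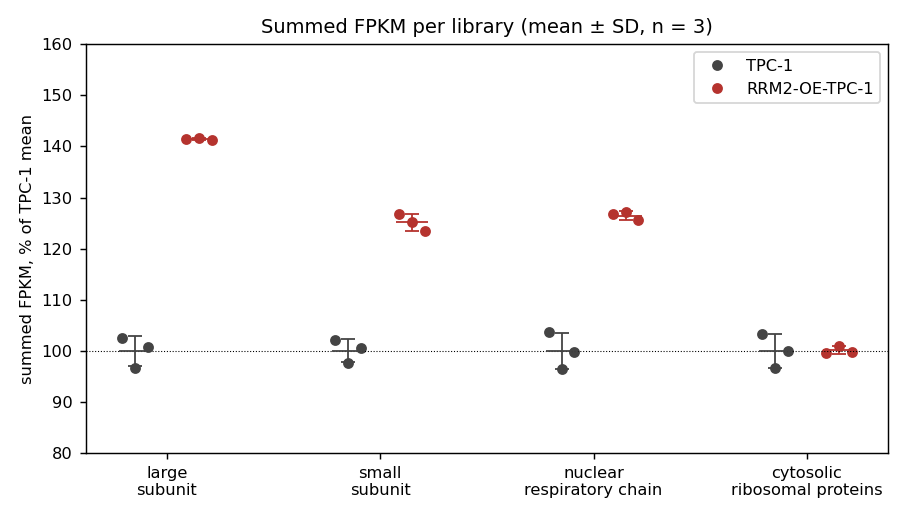
Summed FPKM of each library (points) as a percent of the TPC-1 mean, with group means and standard deviations (n = 3), for the subunits of the mitochondrial ribosome, the nuclear subunits of the respiratory chain and the cytosolic ribosomal proteins; the y axis starts at 80%. The ratio of the means is 1.41 for the large subunit, 1.25 for the small subunit and 1.0 for the cytosolic ribosomal proteins.

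The members were also described by origin. Of 44 tested members with a bacterial counterpart, 39 (88.6%) were higher and 1 lower, and the median log2 fold change was 0.50. Of 31 mitochondria-specific members, 20 (64.5%) were higher and 1 lower, and the median was 0.22. In the large subunit 26 of 28 members with a bacterial counterpart (92.9%) were higher, with a median of 0.53. Of its mitochondria-specific members 11 of 21 (52.4%) were higher, with a median of 0.22. That share is near the 47.3% of protein-coding genes with a mean of at least 5 FPKM, and 34.9% of all genes were higher. In the small subunit 13 of 16 with a counterpart (81.2%) and 9 of 10 mitochondria-specific members (90.0%) were higher, with medians of 0.34 and 0.25. This grouping describes the members and was not tested, and *MRPL55*, whose origin was taken as unsure, and *MRPS36* were left out of it.

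The largest increase was that of *MRPL27* (ENSG00000108826, GRCh38 chr17:50367857-50373214, minus strand). It encodes bL27m, whose bacterial counterpart reaches towards the site of peptide bond formation. It had 5.90, 5.26 and 6.43 FPKM in TPC-1 and 11.1, 12.5 and 12 in *RRM2*-OE-TPC-1. All 3 *RRM2*-OE-TPC-1 values were well above the TPC-1 values, with a log2 fold change of 1.01 (SE 0.0794, adjusted p = 1.23e-05 in limma). Its place past a log2 fold change of 1 rested on single libraries, since it fell to 0.94 without TPC-1 replicate 2 and to 0.97 without *RRM2*-OE-TPC-1 replicate 2, and to just under 1 without *RRM2*-OE-TPC-1 replicate 3. It was 0.95 with values scaled to library totals and 0.91 with a pseudocount of 1.

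*MRPS12* (ENSG00000128626, chr19:38930548-38933162, plus strand) encodes uS12m, the counterpart of a bacterial protein at the decoding site that sets the accuracy of translation. It had 12.8, 11.2 and 12.7 FPKM in TPC-1 and 24, 24.1 and 23.4 in *RRM2*-OE-TPC-1, the largest change in the small subunit. The log2 fold change was 0.96 (SE 0.0562, adjusted p = 2.54e-06 in limma). Of its exonic bases, 16.3% overlap *SARS2* on the opposite strand, a gene at a mean of 0.668 FPKM. *MRPS28*, which encodes the small subunit protein bS1m, had 3.73, 3.70 and 3.70 FPKM in TPC-1 and 7.08, 5.72 and 6.32 in *RRM2*-OE-TPC-1. The groups did not overlap, and the log2 fold change was 0.76 (SE 0.0809).

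Further large subunit genes rose by a log2 fold change above 0.7. *MRPL36*, for the small protein bL36m, had 9.07, 8.45 and 7.2 FPKM in TPC-1 and 13.6, 15.7 and 15.5 in *RRM2*-OE-TPC-1, a log2 fold change of 0.86 (SE 0.091). *MRPL18*, for uL18m of the central protuberance, had 22.7, 21.2 and 21.1 FPKM and 38.7, 38.1 and 37.6, a change of 0.81 (SE 0.0386) with hardly any spread. *MRPL21* had 6.70, 7.07 and 6.93 FPKM in TPC-1 and 12.1, 11.5 and 11.1 in *RRM2*-OE-TPC-1, a log2 fold change of 0.74 (SE 0.0499). In none of these did the groups overlap.

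The members with the highest FPKM also rose. *MRPL15*, for uL15m, had the highest FPKM of all members, with 67.6, 63.4 and 65.1 in TPC-1 and 111, 110 and 109 in *RRM2*-OE-TPC-1. Its log2 fold change was 0.75 (SE 0.0339, adjusted p = 7.1e-07 in limma). *MRPL14*, for uL14m, which faces the small subunit, went from 48.9, 47.1 and 49.5 FPKM to 68.9, 73 and 69.4, a change of 0.54. *MRPS34*, for mS34, a mitochondria-specific small subunit protein whose loss causes Leigh syndrome, went from 42.4, 40.4 and 40.2 FPKM to 62.9, 57.4 and 58.9, also a change of 0.54. These 3 genes showed no overlap between groups. *MRPL41* and *MRPL51*, both mitochondria-specific proteins of the large subunit, each changed by 0.73, from means of 34.4 and 33.9 FPKM to 57.1 and 56.3. For *MRPL51*, 31.3% of the exonic bases overlap *NCAPD2* on the opposite strand, a gene at a mean of 32.6 FPKM, so its values are uncertain where counting took no account of strand.

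**Figure D3:**
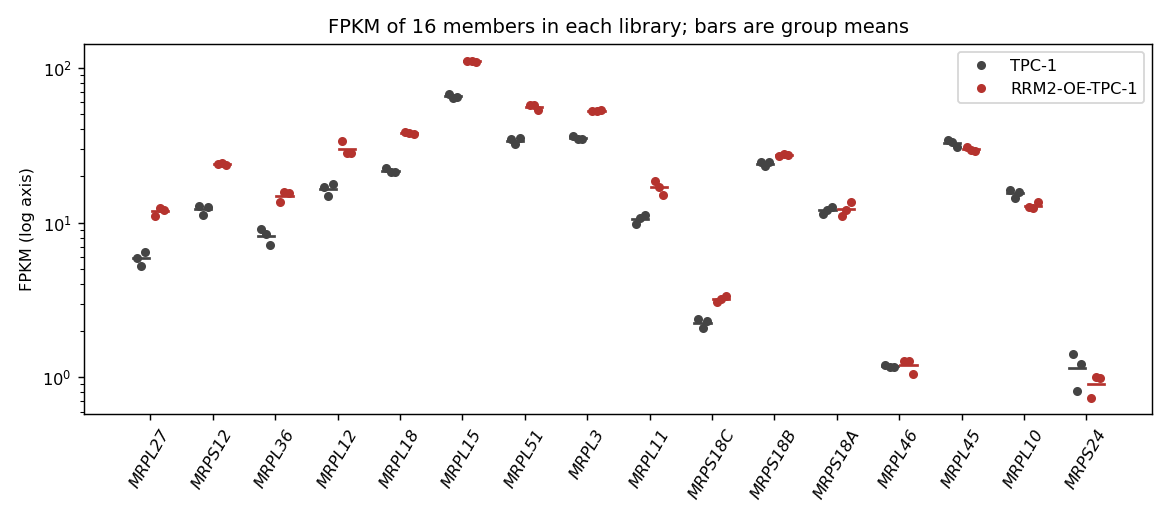
FPKM of 16 members (log y axis) in each TPC-1 library (grey points) and *RRM2*-OE-TPC-1 library (red points), with bars for group means. The groups are apart for *MRPL27*, *MRPS12* and *MRPL15*, overlap for *MRPS18A*, *MRPL46* and *MRPS24*, and are in the opposite order for *MRPL10*.

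The genes of the stalk, the arm of the large subunit that receives the translation factors, moved in opposite directions. *MRPL12*, for bL12m, which forms the stalk and also binds the mitochondrial RNA polymerase, had 16.9, 14.9 and 17.8 FPKM in TPC-1 and 33.6, 28.3 and 28.2 in *RRM2*-OE-TPC-1. Its log2 fold change was 0.86 (SE 0.0863, adjusted p = 4.92e-05 in limma). The annotation places 68.2% of its exonic bases in a second gene on the same strand, *AC139530.2*, which was listed at 0. *MRPL11*, for uL11m at the base of the stalk, had 9.84, 10.7 and 11.2 FPKM and 18.7, 16.9 and 15, a change of 0.66 (SE 0.0835). *MRPL10* (ENSG00000159111, chr17:47823272-47831534, minus strand), for uL10m, which holds bL12m on the ribosome, had 16.2, 14.4 and 15.8 FPKM in TPC-1 and 12.6, 12.4 and 13.5 in *RRM2*-OE-TPC-1. All *RRM2*-OE-TPC-1 values of *MRPL10* lay below those of TPC-1, and its log2 fold change was -0.26 (SE 0.0563, adjusted p = 0.00347 in limma). With any single library removed the estimate was between -0.31 and -0.23. Tested against a change above 0.2 in place of any change, *MRPL10* had an adjusted p of 0.257.

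*MRPL45* (ENSG00000278845, chr17:38297023-38323218, plus strand) encodes mL45, a protein at the exit of the peptide tunnel that faces the inner membrane. It had 34.3, 33.1 and 30.8 FPKM in TPC-1 and 30.8, 29.4 and 29.2 in *RRM2*-OE-TPC-1, so that the groups were apart by less than the rounding of these values shows. The log2 fold change was -0.14 (SE 0.0468, adjusted p = 0.0307 in limma). The call was lost without TPC-1 replicate 1 (adjusted p = 0.0958), TPC-1 replicate 2 (0.0772), *RRM2*-OE-TPC-1 replicate 2 (0.0866) or *RRM2*-OE-TPC-1 replicate 3 (0.0933). The pseudogene *MRPL45P2* had mean levels of 2.18 FPKM before and 2.02 after overexpression (adjusted p = 0.513).

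The MRPS18 family has 3 members in humans, which occupy different places on the ribosome, and their estimates ran from 0.023 to 0.49. *MRPS18C*, for bS18m, had 2.40, 2.08 and 2.30 FPKM in TPC-1 and 3.09, 3.23 and 3.34 in *RRM2*-OE-TPC-1, a log2 fold change of 0.49 (SE 0.0833). *MRPS18B*, for mS40 of the small subunit, had 24.5, 23.2 and 24.5 FPKM and 27, 27.8 and 27.5, a change of 0.19 (SE 0.0361). Both rose, with no overlap between groups. *MRPS18A*, for mL66 of the large subunit, had 11.3, 12.1 and 12.6 FPKM and 11, 12 and 13.6, with an estimate of 0.023 (SE 0.0784, adjusted p = 0.804 in limma), and its groups overlapped. On the opposite strand, *ABRAXAS1* covers 40.2% of the exonic bases of *MRPS18C* and *RSPH9* 47.0% of those of *MRPS18A*, at means of 2.16 and 0.109 FPKM. The differences between the paralogs were not tested.

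Members known from inherited disease or for a second activity followed. *MRPL44*, for mL44, which is mutated in a form of infantile cardiomyopathy, had 16.2, 17.3 and 17.9 FPKM in TPC-1 and 22.5, 20.7 and 19.6 in *RRM2*-OE-TPC-1, a log2 fold change of 0.29 (SE 0.0599). *MRPL58*, also called ICT1, a peptidyl-tRNA hydrolase that became part of the large subunit, had 17.2, 16 and 17.1 FPKM and 18.1, 21.7 and 19.9, a change of 0.24 (SE 0.0663). *MRPS22*, for mS22, also a gene of mitochondrial disease, had 8.51, 8.31 and 8.77 FPKM and 9.72, 9.08 and 9.35, a change of 0.14 (SE 0.0471). Their groups did not overlap. The call of *MRPS22* (adjusted p = 0.0319) was lost without TPC-1 replicate 1 (0.0678), TPC-1 replicate 2 (0.0883), *RRM2*-OE-TPC-1 replicate 1 (0.0969) or *RRM2*-OE-TPC-1 replicate 3 (0.072), and with the replicate block (0.0541). *MRPS36*, the subunit of 2-oxoglutarate dehydrogenase, had 6.46, 6.72 and 6.60 FPKM and 6.69, 9.23 and 9.11, where the overlap came from *RRM2*-OE-TPC-1 replicate 1. Its log2 fold change was 0.32 (SE 0.115, adjusted p = 0.0374 in limma).

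Few members had low FPKM. *MRPL38* had 0.736, 0.487 and 0.651 FPKM in TPC-1 and 0.661, 0.685 and 0.565 in *RRM2*-OE-TPC-1, an estimate of 0.037 (SE 0.183). *MRPL46* had 1.20, 1.16 and 1.17 FPKM and 1.27, 1.27 and 1.05, an estimate of 0.02 (SE 0.118), and the sign of both flipped under scaling to library totals. *MRPS24*, for uS3m, had 1.42, 0.819 and 1.22 FPKM and 0.741, 1.01 and 0.985, an estimate of -0.29 (SE 0.21, adjusted p = 0.248 in limma) on 28 to 62 reads per library. Without TPC-1 replicate 2 it was -0.50 with an adjusted p of 0.04. In all 3 the groups overlapped. *MRPL23*, for uL23m, was listed at 0 in 5 libraries, with 1 read in *RRM2*-OE-TPC-1 replicate 1, and was not tested. These values do not show whether its RNA was absent. Of the exonic bases, 37.5% of *MRPL38* and 23.2% of *MRPS24* lie in a second gene on the same strand (*AC087289.3* and *URGCP-MRPS24*).

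Over all members, 7 shared at least 20% of their exonic bases with another gene on the same strand. Among the 63 tested members that share under 20% with any gene on either strand, 51 (81.0%) were higher and 2 lower. Over all genes tested the shares were 34.9% and 32.7%. The median log2 fold change of these 63 members was 0.35. The annotation lists 75 pseudogenes named after 34 members. They held 697 reads in all, 0.237% of the 294538 reads of the members.

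Promoter sequences are shown as a description, and their part in the changes of the members was not tested. RefSeq sequences (GRCh38.p14) from 250 bases before to 50 bases after the start were matched to 64 of the 78 members, using the start nearest to that of the deposited table and within 1000 bases of it. A match is a run of letters on either strand and says nothing about binding. The letters CCGGAAGT, which ETS factors such as GABP recognise, were found in 10 member promoters (15.6%), against 9.87% of 8012 promoters of tested protein-coding genes and 5.95% of 15030 promoters in all. *MRPL27* holds them at both ends of the 60 bases before its start, *MRPL3* once, and *MRPS34* in the reverse orientation. These genes were higher, whereas *MRPL38* (0.037) and *MRPL53* (0.13), which also hold the letters, passed in neither direction. *MRPL3*, for uL3m, had 36.4, 34.6 and 34.5 FPKM in TPC-1 and 52.9, 52.7 and 53.2 in *RRM2*-OE-TPC-1, a log2 fold change of 0.59 (SE 0.0331). Capitals mark the ETS letters in the following sequences, each on the minus strand of chr17:50373185-50373244, chr3:131502972-131503031 and chr16:1773135-1773194.
*MRPL27*: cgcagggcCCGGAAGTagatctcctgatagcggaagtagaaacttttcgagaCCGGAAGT
*MRPL3*: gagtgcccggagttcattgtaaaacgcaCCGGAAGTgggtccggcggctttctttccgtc
*MRPS34*: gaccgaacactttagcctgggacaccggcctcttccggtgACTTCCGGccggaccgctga

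The letters AAGATGGC, which the factor YY1 recognises and which can contain the start codon, were found in 19 member promoters (29.7%), against 5.84% of the promoters of tested protein-coding genes and 3.78% in all. Of the 48 member promoters whose gene was higher 10 (20.8%) held them, and of the other 16 promoters 9. The ETS letters were in 8 of the 48 and 2 of the 16. These counts carry no test. *MRPL51* and *MRPL45*, which changed in opposite directions, both have the letters just after the RefSeq start used. In the deposited table these genes begin further upstream, at chr12:6493841 and chr17:38297023. Capitals mark the letters in windows of 30 bases, at chr12:6493223-6493252 (minus strand) and chr17:38297170-38297199 (plus strand).
*MRPL51*: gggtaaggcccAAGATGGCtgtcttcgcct
*MRPL45*: tttgcgggaacAAGATGGCagcccccatac

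Other motifs stood near their background. The letters GCGCATGCG of NRF1, a regulator of nuclear genes for mitochondria, were in 4.69% of member promoters and 4.06% of promoters of tested protein-coding genes. The E-box CACGTG was in 7.81% and 10.6%. *MYC*, whose product binds E-boxes, had 128, 125 and 123 FPKM in TPC-1 and 70.3, 71.7 and 75.4 in *RRM2*-OE-TPC-1, a log2 fold change of -0.78 (SE 0.0371). These are RNA values, and the paper's Western blots gave the opposite direction, with more c-MYC protein in *RRM2*-OE-TPC-1. The E2F letters TTTCCCGC and TTTGGCGC were each in 1.56% of member promoters, against 2.93% and 1.24%.

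For 18 members another protein-coding gene starts on the opposite strand, within 1000 bases upstream or with an overlap of at most 100 bases. Pairs with a longer overlap were not counted, among them *MRPL49* with *FAU* (0.42) and *MRPS12* with *SARS2* (-0.0073). Of the 19 partners counted, among them the members *MRPS11* and *MRPL46*, 16 were tested. Of these 8 were higher and 2 lower, against 34.9% and 32.7% of all genes, and 47.3% higher among protein-coding genes with a mean of at least 5 FPKM. *MRPL27* shares its start region with *EME1*, a DNA repair nuclease subunit (0.71), *MRPL18* with *TCP1*, a chaperonin subunit (0.75), and *MRPL36* with *NDUFS6*, a complex I subunit (0.64), all of which rose. *MRPL46* and *MRPS11* start 34 bases apart and gave estimates of 0.02 and 0.51, of which only that of *MRPS11* passed the test. The pair *MRPL52* and *SLC7A7*, an amino acid transporter, gave 0.62 and -0.67 and both passed, in opposite directions.

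Ribosomal proteins whose symbols are not MRPL or MRPS were higher in 5 of 5, against 34.9% of all genes tested, with a median log2 fold change of 0.53. *GADD45GIP1*, for mL64, had 17.5, 18.3 and 20.1 FPKM in TPC-1 and 33.5, 30.8 and 30.5 in *RRM2*-OE-TPC-1, a change of 0.76 (SE 0.06). The others were *AURKAIP1* with 0.71, *DAP3* with 0.53, *CHCHD1* with 0.35 and *PTCD3* with 0.17. The 2 RNAs of the ribosome, encoded in mitochondrial DNA, were not higher. *MT-RNR1*, of the small subunit, had 1140, 1076 and 986 FPKM in TPC-1 and 617, 700 and 750 in *RRM2*-OE-TPC-1, a log2 fold change of -0.63 (SE 0.0831, adjusted p = 2.3e-04 in limma). *MT-RNR2*, of the large subunit, had 3792, 3589 and 3346 FPKM and 2860, 3221 and 3332, an estimate of -0.19 (SE 0.0856, adjusted p = 0.0813). It passed the test at -0.25 under scaling to library totals, and also with voom on recovered reads. Per the labels ribosomal RNA was removed before sequencing, and per the methods poly(A) RNA was selected. The part of either in these levels was not tested.

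Factors that assemble the ribosome were mixed, with 15 of 28 (53.6%) higher and 6 (21.4%) lower and a median log2 fold change of 0.17. Of all genes tested 34.9% were higher and 32.7% lower. Of protein-coding genes with a mean of at least 5 FPKM 47.3% were higher. *MRM1*, a methyltransferase of the large rRNA, had 2.42, 3.71 and 3.51 FPKM in TPC-1 and 6.78, 5.28 and 5.64 in *RRM2*-OE-TPC-1, a change of 0.87. *NGRN*, which takes part in the maturation of the large rRNA, had 4.11, 3.78 and 3.59 FPKM and 2.47, 2.18 and 2.90, a change of -0.59. *NSUN4* and *TFB1M*, methyltransferases of the small rRNA, changed by -0.53 and -0.43. Of 15 translation factors 7 were higher and 3 lower, with a median of 0.20. The elongation factors *TUFM* with 0.48, *TSFM* with 0.48 and *GFM1* with 0.43 rose, as did *MTFMT*, which formylates the initiator tRNA, with 0.58. The initiation factors were split, with *MTIF2* higher at 0.34 and *MTIF3* lower at -0.35. The insertase *OXA1L*, which takes new proteins into the inner membrane, changed by -0.32.

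**Figure D4:**
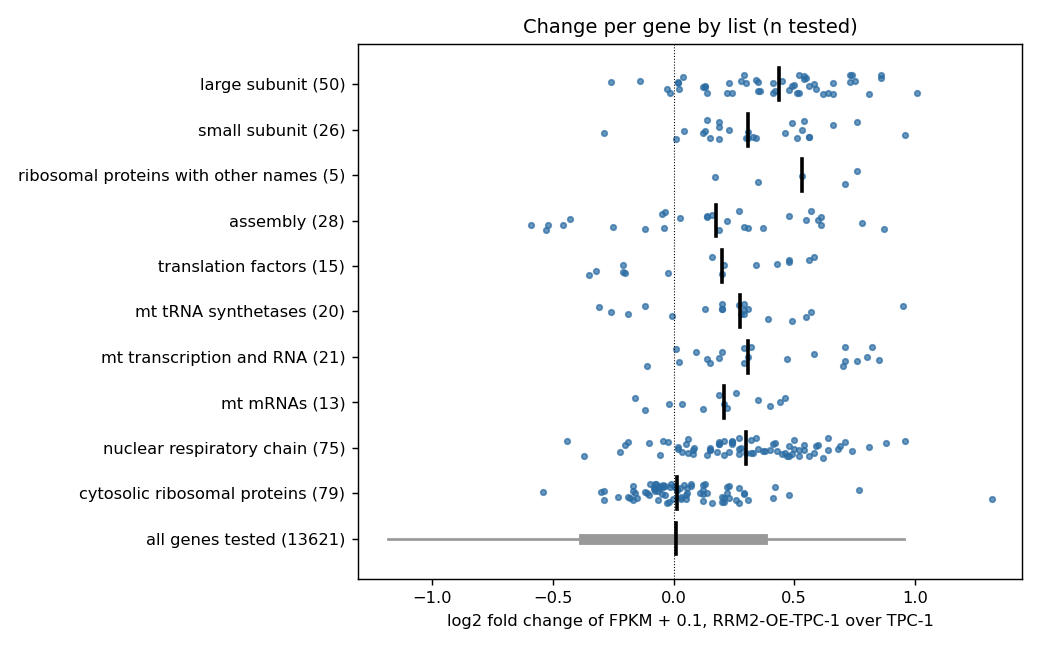
Log2 fold change of FPKM + 0.1 in *RRM2*-OE-TPC-1 over TPC-1 (x axis) of each tested gene (points) by list, with the number of genes in brackets and black bars for medians; for all genes the thick and thin grey lines span the 25th to 75th and 5th to 95th percentiles. The medians of the large and small subunit are 0.44 and 0.31, against 0.013 for cytosolic ribosomal proteins and 0.011 for all genes.

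Of 21 genes for mitochondrial transcription and RNA processing, 14 (66.7%) were higher and 0 lower, with a median of 0.31. Of all genes tested 34.9% were higher and 32.7% lower. *ELAC2*, which cuts the 3′ ends of mitochondrial tRNAs, had 12.4, 11.9 and 11.6 FPKM in TPC-1 and 21.7, 21.5 and 21.5 in *RRM2*-OE-TPC-1, a log2 fold change of 0.85, and *TFAM*, which packages mitochondrial DNA and starts its transcription, changed by 0.58. Of 20 mitochondrial tRNA synthetases, 13 were higher and 2 lower, and *PARS2* was at -0.31 (adjusted p = 0.0382), a call lost with the replicate block (0.06) and without TPC-1 replicate 1 (0.119), TPC-1 replicate 3 (0.121) or any of the 3 *RRM2*-OE-TPC-1 libraries (0.0656 to 0.0888). The mRNAs made in mitochondria varied more between libraries than the members did. Their summed FPKM was 48599, 46035 and 39401 in TPC-1 and 37957, 52772 and 54805 in *RRM2*-OE-TPC-1, with overlap. Of the 13 mRNAs 3 (23.1%) were higher, a smaller share than the 34.9% of all genes. *MT-ND6*, a complex I subunit, was the largest at 0.46 (adjusted p = 0.0115 in limma). Without *RRM2*-OE-TPC-1 replicate 1 the number was 9, and it was 1 without TPC-1 replicate 2, TPC-1 replicate 3, *RRM2*-OE-TPC-1 replicate 2 or *RRM2*-OE-TPC-1 replicate 3, and 1 with the replicate block.

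The nuclear subunits of the respiratory chain, with which the mitochondrial products assemble, were higher in 53 of 75 (70.7%) and lower in 3 (4.0%). Their median was 0.30, and of all genes tested 34.9% were higher and 32.7% lower. *NDUFAB1*, which is both the mitochondrial acyl carrier protein and a complex I subunit, had 14.3, 13.1 and 12.4 FPKM in TPC-1 and 26.8, 26.2 and 24.4 in *RRM2*-OE-TPC-1, a log2 fold change of 0.96. *NDUFB1*, also of complex I, changed by -0.37. The FPKM of the proteins of the cytosolic ribosome came to 17317, 16216 and 16789 in TPC-1 and 16699, 16947 and 16754 in *RRM2*-OE-TPC-1, a ratio of 1.0 with overlap. Of 79 genes 20 (25.3%) were higher and 12 (15.2%) lower, with a median of 0.013. Under scaling to library totals 17 were higher and 22 lower. *RPS26* changed most, by 1.32, and *RPL3* by -0.54 in the other direction. For every 100 FPKM of cytosolic ribosomal proteins there were 6.75, 6.83 and 6.85 FPKM of mitochondrial ones in TPC-1 and 9.32, 9.17 and 9.22 in *RRM2*-OE-TPC-1.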

How the data were processed

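RNA of 3 TPC-1 and 3 *RRM2*-OE-TPC-1 libraries was sequenced. Reads were cleaned with fastp, aligned and counted per gene by the authors, who deposited FPKM values. The submitters' processing notes name HISAT2 2.0.5, featureCounts 1.5.0, DESeq2 1.20.0 and the build GRCh38.p14, and whether counting used strand is not given in the sources used here. Identifiers of all 58735 genes were found in GENCODE on GRCh38. Multiplied by gene length, 100.0% of values were whole multiples (tolerance 0.01) of a step of each library, which gave the reads and the divisor. The test was limma 3.58.1 in R 4.3.3 (lmFit, eBayes) on log2(FPKM + 0.1), with a trend of the variance and Benjamini-Hochberg adjustment over the 13621 genes with at least 0.5 FPKM and 10 recovered reads in 3 libraries. Fold changes on this scale understate those of low genes. Python 3.11.15 with pandas 2.3.3 and matplotlib 3.10.9 was used for the rest. Tested on simulated data of 13565 genes, the fit called 61.9% of 97 changes of 0.4 and 93% of 100 changes of 1, with 5 unchanged genes called. Simulated increases and decreases were balanced, and all genes had a single dispersion of 0.001. In the data 4758 genes were called higher and 4449 lower, which loosens the adjusted threshold. The simulated shares therefore do not carry over to the data.

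The members, the gene lists and the tests were chosen with earlier results of these data known. Lists were written by hand. Named were the 8 largest increases and decreases among called members whose groups did not overlap, members past both thresholds, the 5 highest and 3 lowest, the untested member, the MRPS18 family, members of known role, mitochondrial rRNAs, the largest call each way of each related list, *RRM2* and *MYC*. Other genes, such as *MRPL3*, *MRPS36*, *MRPS11*, *MRPL52*, the promoter partners and further genes of the related lists, were named after their values were seen. Alternatives covered scaling, filters, pseudocounts, genes fitted, variance, test, each library left out and the replicate block. Scaling by median-of-ratios factors nearly repeated that of the deposited values. The count without overlapping members was added after seeing the data. Promoter sequences came from RefSeq. Replicate numbers did not pair the samples. Some items that the naming rule covers are not reported here.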

Additional observations from a re-analysis of the deposited data

How the results depend on the processing

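The 60 higher members were 54 to 61 in every other fit over all members except the test of a change above 0.2, which called 40 higher and 0 lower, and 54 were called higher in all 18 fits other than that test. Leaving out each library in turn gave 55 to 59 higher, 1 to 2 lower and 0 to 1 past both thresholds, with medians of 0.35 to 0.41. Lower members were 1 with no filter on low values and 1 with no variance trend. With values scaled to library totals, with or without mitochondrial genes, and with a pseudocount of 1, 0 members passed both thresholds, and both scalings gave a median of 0.30. Both changed the sign of 6 members near 0, *MRPS10*, *MRPS30*, *MRPS31* and, with values, *MRPL38* (-0.013 and -0.013), *MRPL46* (-0.033 and -0.034) and *MRPS18A* (-0.034 and -0.034). None of these 6 was called in any fit. Leaving out libraries took *MRPL38* to between -0.11 and 0.15, *MRPL46* to between -0.022 and 0.10 and *MRPS18A* to between -0.056 and 0.094. The cause was not tested. Cytosolic ribosomal proteins called lower were 22 and 23 under the scalings, against 12. Mitochondrial mRNAs called higher were 0 with no filter, 8 with voom on recovered reads and 0 in the test of a change above 0.2, against 3.

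The replicate numbers share only a number: deviations of same-numbered libraries correlated at -0.0105, -0.00602 and -0.055. The fit with the replicate block called 58 members higher and 2 lower, with a median of 0.36. Of 798 values of named genes, 746 kept their direction and side of the threshold. Members under 5 FPKM had from 28 reads in a library, which limits the precision of the lowest, and no empty-vector library was analysed here.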
